A study of Mus musculus with 25 samples.

Results

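The genes described here are 10 heat shock and chaperone genes, Hspa1a, Hspa1b, Hspa8, Hsp90aa1, Hsp90ab1, Hsph1, Dnajb1, Dnaja1, Hspd1 and Hspe1, measured by RNA sequencing in mouse 2-cell embryos. They were chosen by name, by matching Ensembl gene identifiers to symbols, and are 10 of the 55375 genes in the deposited count table. All 10 entered the test, which covered 25794 genes on the autosomes that averaged 1 read or more per library. The study asked how removal of H3K9 methylation, a repressive histone mark, and a rise in histone acetylation change the transcriptome of embryos made by somatic cell nuclear transfer (SCNT), in which a cumulus cell nucleus replaces the oocyte's own. It compared 11 groups in 25 libraries, each library from a pool of 5 to 10 wild-type embryos collected 28 to 29 h after insemination or activation.

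The in vitro fertilized (IVF) group had 4 libraries, from C57BL/6N oocytes and DBA2 sperm. The labels give the C57BL/6N females as 4 to 20 weeks old, and the methods give a narrower range within it for the IVF controls. All SCNT groups used oocytes of adult BDF1 females and BDF1 cumulus nuclei, so that oocyte strain and embryo type cannot be told apart. The paper also states that the IVF embryos were of both sexes and the SCNT embryos all female. It left out the sex chromosomes for this reason, and sex too cannot be told apart from embryo type. Control SCNT embryos, activated in cytochalasin B, had 2 libraries. SCNT embryos injected with 10 pL of Kdm3a or Kdm4d mRNA 5 to 6 h after activation had 2 libraries each and shared this activation. Kdm3a encodes a demethylase of mono- and dimethylated H3K9, and Kdm4d a demethylase of di- and trimethylated H3K9. The remaining 7 groups were SCNT embryos in latrunculin A (LatA), which was used in place of cytochalasin B and, by the paper's methods, for longer. They were a LatA control, trichostatin A (TSA, a histone deacetylase inhibitor, 25 nM for 8 h), the G9a inhibitors A366 and RK-701 (R701 in the labels), each at 1 µM for 24 h, and TSA together with A366, RK-701 or UNC0638, a further G9a inhibitor. RK-701 alone had 3 libraries and the other LatA groups had 2 each. UNC0638 without TSA was not analysed here. The labels do not say that the pools came from separate collection days, so p-values measure the spread between these pools, which may be partly technical.

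Heat shock proteins fold newly made and damaged proteins. HSP70 proteins bind unfolded stretches, J proteins deliver clients to them and start their ATP cycle, HSP110 proteins exchange the nucleotide, and HSP90 completes the folding of kinases and receptors. HSP60 and HSP10 form the folding chamber of the mitochondrial matrix. Heat shock factors bind heat shock elements, repeats of the pentamer nGAAn in alternating direction, in the promoters of many of these genes. In the mouse, Hspa1a and Hspa1b are among the first genes transcribed by the zygotic genome, without any heat stress, and the HSP90 and HSC70 messages are also stored in the oocyte.

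In mm10 coordinates Hspa1a (chr17:34969190-34972156), Hspa1b (chr17:34956436-34959238) and Hsp90ab1 (chr17:45567775-45573271) lie on the minus strand of chromosome 17. Hspd1 (chr1:55077835-55088243) and Hspe1 (chr1:55088132-55091307) overlap head to head on chromosome 1. Hspa8 (chr9:40800984-40810087), Hsp90aa1 (chr12:110690605-110702728), Hsph1 (chr5:149614287-149636376), Dnajb1 (chr8:83608193-83612653) and Dnaja1 (chr4:40722150-40737149) lie apart. Promoters are printed for Hspa1a and Hspa1b and for Hspe1, because each shares promoter sequence with its partner gene, and for Hsph1, a helper of HSP70 with a match of its own. RefSeq promoter windows (build GRCm38.p6, 250 bases before the transcription start, coding strand, 5′ to 3′) were found for 7 of the 10 genes. Capitals mark heat shock element matches, GAANNTTC or TTCNNGAA, searched on both strands.
Hspa1a (chr17:34972157-34972406, minus strand): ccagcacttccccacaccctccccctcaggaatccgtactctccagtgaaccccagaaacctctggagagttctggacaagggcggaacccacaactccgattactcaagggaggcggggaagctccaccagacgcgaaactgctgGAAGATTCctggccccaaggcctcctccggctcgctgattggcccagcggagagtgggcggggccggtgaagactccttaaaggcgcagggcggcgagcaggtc
Hspa1b (chr17:34959239-34959488, minus strand): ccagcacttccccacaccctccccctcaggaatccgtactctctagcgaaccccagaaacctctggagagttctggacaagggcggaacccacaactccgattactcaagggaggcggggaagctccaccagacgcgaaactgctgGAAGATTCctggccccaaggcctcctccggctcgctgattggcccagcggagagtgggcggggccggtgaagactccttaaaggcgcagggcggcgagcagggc
Hsph1, first start (chr5:149636337-149636586, minus strand): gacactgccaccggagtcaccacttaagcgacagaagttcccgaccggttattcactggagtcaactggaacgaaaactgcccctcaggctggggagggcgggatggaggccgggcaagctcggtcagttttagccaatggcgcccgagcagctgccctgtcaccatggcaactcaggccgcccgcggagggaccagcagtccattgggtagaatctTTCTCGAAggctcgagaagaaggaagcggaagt
Hspe1 (chr1:55087898-55088147, plus strand): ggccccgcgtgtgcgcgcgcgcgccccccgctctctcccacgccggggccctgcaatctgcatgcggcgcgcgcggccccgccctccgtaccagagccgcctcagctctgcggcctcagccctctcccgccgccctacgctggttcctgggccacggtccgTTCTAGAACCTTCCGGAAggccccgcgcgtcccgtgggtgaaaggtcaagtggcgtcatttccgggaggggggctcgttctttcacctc
The Hspa1a and Hspa1b windows differed at 3 of 250 bases, and each held 1 match, GAAGATTC, beginning 104 bases before the start. The Hspe1 window held 3 overlapping matches in a row, beginning 89, 84 and 79 bases before its start. Hspd1 lies on the other strand next to Hspe1, and 215 bases of the Hspe1 window were also in the window of one annotated Hspd1 start, where the matches began 144, 139 and 134 bases before that start. The Hsph1 window held TTCTCGAA beginning 33 bases before the start. One of 3 Dnaja1 windows held GAAAATTC, and the Dnajb1 windows held no match. Over all 32851 promoter windows searched, 6.69% held GAANNTTC, 7.17% held TTCNNGAA and 0.466% held both with the middle unit shared, a 3-unit form that occurs in the Hspe1 and Hspd1 windows. A match is a string of letters and was not tested for binding.

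Total counts per library were 6662727 to 21188688 (median 13994840). Counts for Hspa1a were 21 to 340 per library and for Hspa1b 48 to 558, so these 2 genes carry the largest counting error. The other 8 genes had at least 275 counts in every library. The injected mRNAs were seen in their own groups, with Kdm3a at 3116 and 3465 counts scaled by library size to CPM units against 109 to 266 in the other 23 libraries, and Kdm4d at 12540 and 18542 against 0.718 to 5.08. Of the 7 markers of the 2-cell stage, at least 6 had reads in every library. Summed cumulus cell markers were at 36.1 to 76.2 CPM in all libraries. In IVF, which has no donor cumulus nucleus, they were at 40.3 to 52.7 CPM, and in the TSA group at 61.5 and 76.2. Of these 15 markers 10, among them Fshr, Amh, Foxl2 and Cyp11a1, had no read in at least 1 library. Amhr2, with 202 to 762 counts per library, had the highest group mean, 56.4 CPM, and the next marker, Tnfaip6, reached 9.02 CPM. The sums are therefore not a measure of all 15 markers. Reads were kept only where they mapped to 1 place, and 150-base windows of the Hspa1a transcript were found in other genes in 46.0% of cases, mostly in Hspa1b. The share was 40.5% for Hspa1b, 56.0% for Hspa8, 36.2% for Hsp90aa1, 20.0% for Dnaja1, 18.6% for Hspd1 and 14.1% for Hspe1, and 0 for Hsp90ab1, Hsph1 and Dnajb1. Levels of Hspa1a, Hspa1b and Hspa8 are therefore uncertain. Hspa1a also shared 19.0% of its exon bases with another annotated gene, Gm20481, and counting did not use strand. This share was 10.8% for Dnaja1, with Smu1 among the genes, and 7.6% or less for the others.

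Levels of different genes were compared per length, in TPM, counts per base of exon scaled to a fixed sum over autosomal genes. The cytosolic HSP90 and HSC70 messages were abundant and the inducible HSP70 messages were rare. In IVF embryos (n = 4, mean ± SD), Hsp90ab1, the constitutive HSP90, was at 606 ± 32.1 TPM, Hsp90aa1, its inducible paralog, at 506 ± 24.4 TPM and Hspa8, the constitutive HSP70 called HSC70, at 365 ± 30.2 TPM. Hspe1 (HSP10) was at 190.4 ± 15.3, Dnaja1 at 140.1 ± 15.8, Hsph1 (HSP110) at 134 ± 15.6 and Hspd1 (HSP60) at 115 ± 15.0 TPM. The IVF ranges of Dnaja1, Hsph1 and Hspd1 overlapped, that of Hspe1 lay above them, and Dnajb1, the J protein that partners inducible HSP70, was lower at 42.8 ± 16.5 TPM. For Dnaja1 the length used was 8629 bases over all its exons, whereas its longest coding transcript has 5622. A shorter length would give a higher TPM, so the place of Dnaja1 in this order is uncertain. Hspa1b followed at 11.4 ± 2.46 and Hspa1a at 4.27 ± 1.51 TPM. Over the 25 libraries the median TPM ran from 1303 for Hsp90ab1 to 4.83 for Hspa1a, and the mean of Hsp90ab1 exceeded that of 99.7% of tested genes.

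A fold change below is on the TMM-normalized scale of edgeR, and a gene is called, and said to have risen or fallen, where the adjusted p of edgeR's quasi-likelihood test was under 0.05 and the change was over 2-fold. The share of all tested genes called in the same comparison is given as background. TMM factors were 0.883 to 0.968 in IVF, mRNA-injected and co-treated libraries and 1.06 to 1.16 in the others, so that ratios of mean TPM were lower than these fold changes for the injected and co-treated groups against their controls. They are given beside each call whose change was under 2-fold by that ratio. The same factors enter every CPM value. Beside library totals they raise CPM in the first set of libraries and lower it in the others. Ranges that stay apart in CPM can therefore overlap in TPM.

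The inducible HSP70 genes, Hspa1a and Hspa1b, differed between the G9a inhibitors A366 and RK-701 when given without TSA. In RK-701 embryos Hspa1b was at 5.09, 4.40 and 4.09 CPM, against 8.37, 13.1, 11.3 and 14.2 in IVF and 10.5 and 7.91 in the LatA control. All 3 RK-701 pools were below every other pool of the series for Hspa1b. In A366 embryos Hspa1b was at 22.8 and 38.3 CPM, and these pools were above every IVF and LatA control pool. Hspa1a was at 2.73, 1.78 and 2.38 CPM with RK-701 and 8.73 and 23.3 with A366. For this gene one LatA control pool, at 1.90 CPM, lay within the RK-701 range. The other, at 9.31 CPM, lay above the lower A366 pool, so the control did not separate from either inhibitor.

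A366 and RK-701, given at the same dose and for the same time, differed in both genes. Hspa1a was 6.93-fold higher with A366 (log2 fold change 2.79 ± 0.51 (SE), adjusted p = 0.000431) and Hspa1b 6.72-fold higher (log2 fold change 2.75 ± 0.34 (SE), adjusted p = 6.26e-06), 2 of 10 genes called against a background of 8.08%. The other 8 were not called. Hspd1, at 151, 136 and 132 CPM with RK-701 and 91.0 and 97.1 with A366, passed on adjusted p only (log2 fold change -0.57 ± 0.16 (SE), adjusted p = 0.0186). For Hspa8 the 95% interval of the log2 difference was -0.54 to 0.35, and for Hsp90aa1 -0.15 to 0.49. A366 replicate 2 held the highest values of both HSP70 genes. Without it the log2 difference was 1.85 with an adjusted p of 0.0594 for Hspa1a, and Hspa1b alone remained called. Summed oocyte markers differed between the same groups, at 1084, 886 and 973 CPM with RK-701 and 409.6 and 544 with A366, and their part in the HSP70 difference was not tested. In bulk samples, fewer cells carrying a message and less of it per cell cannot be told apart.

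**Figure D1:**
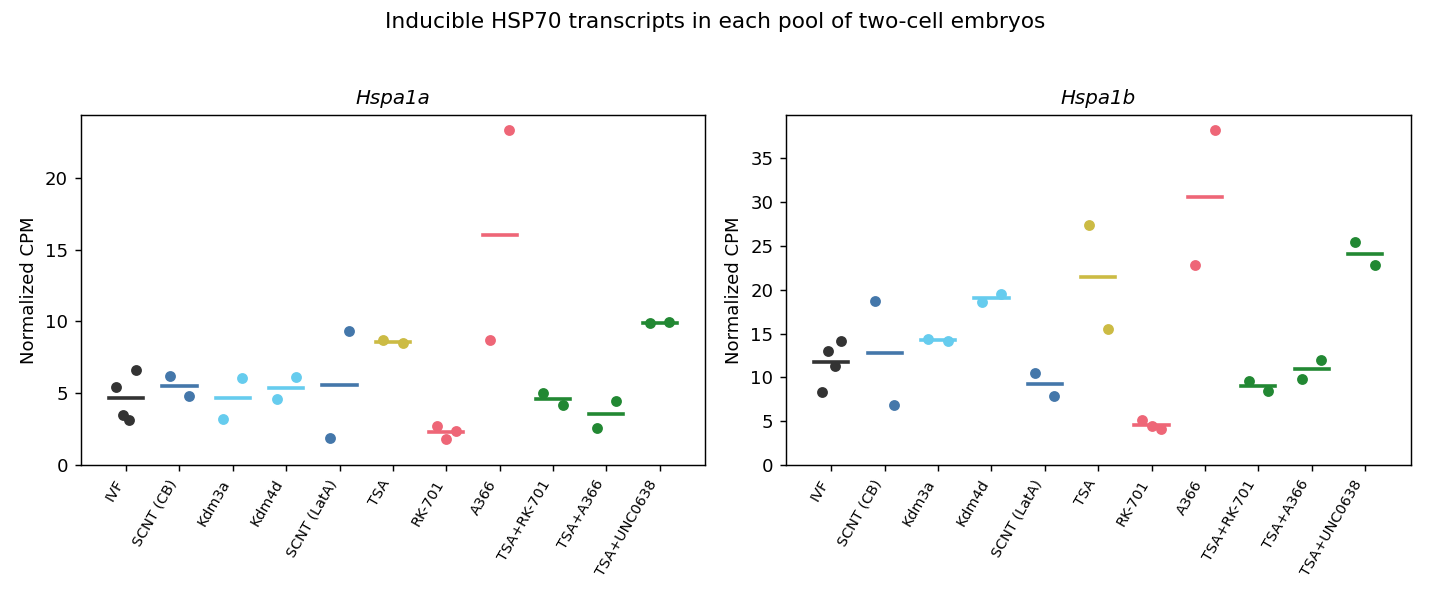
Normalized CPM (y axes, from 0) of Hspa1a and Hspa1b in each pool (points) of the 11 groups (x axes), with the group mean as a bar. RK-701 pools lie at the bottom for Hspa1b and among the lowest for Hspa1a, A366 replicate 2 at the top, and the TSA and UNC0638 pools stay above the other co-treatments.

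Against IVF, Hspa1b fell with RK-701 (log2 fold change -1.38 ± 0.30 (SE), adjusted p = 0.00146), the only gene called there (background 11.8%). Both genes rose with A366, Hspa1a by 1.79 ± 0.45 (SE) and Hspa1b by 1.37 ± 0.31 (SE) on the log2 scale (edgeR adjusted p = 0.00483 and 0.00163; background 15.2%), and no other gene was called. Neither A366 call held without A366 replicate 2, where the log2 values were 0.86 with an adjusted p of 0.357 and 0.90 with an adjusted p of 0.132. Against the LatA control, which the 6 inhibitor groups share, no gene was called with A366 (background 0.12%) or with RK-701 (background 3.35%). The values for Hspa1b were 1.73 with A366 (adjusted p = 0.061) and -1.02 with RK-701 (adjusted p = 0.0817), both called with DESeq2.

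TSA alone gave Hspa1b at 27.4 and 15.5 CPM and Hspa1a at 8.73 and 8.47, above every IVF pool for both. None of the 10 genes was called in TSA against IVF (background 14.9%), where Hspa1b and Hsp90ab1 passed on adjusted p at 0.86 and 0.99 on the log2 scale (adjusted p = 0.0477 and 6.92e-05). None was called in TSA against the LatA control (background 0.318%).

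Adding TSA to A366 lowered both inducible genes. With TSA and A366 together Hspa1a was at 2.57 and 4.46 CPM and Hspa1b at 9.87 and 12.04, below both A366 pools in each case. Against A366 alone Hspa1a fell by 2.19 ± 0.57 (SE) on the log2 scale (adjusted p = 0.0166) and Hspa1b by 1.48 ± 0.37 (SE; adjusted p = 0.014), 2 of 10 genes against a background of 4.76%. Both calls were lost without A366 replicate 2 or without either co-treated pool. The departure from the sum of the separate log2 changes was -2.69 ± 0.53 (SE) for Hspa1b (adjusted p = 0.0111; background 1.83%) and -2.83 ± 0.79 (SE) for Hspa1a (adjusted p = 0.0576), the second not called. The Hspa1b departure was not called without A366 replicate 2 (-2.21 with an adjusted p of 0.0948), without TSA replicate 1, without TSA and A366 replicate 1 or in a fit of the compared libraries alone.

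With TSA and RK-701 together Hspa1b was at 9.58 and 8.44 CPM, above all 3 RK-701 pools and below both TSA pools. It fell against TSA alone (log2 fold change -1.25 ± 0.37 (SE), adjusted p = 0.0498), the 1 gene called there (background 3.08%), a call lost without TSA replicate 1, the higher TSA pool, where the value was -0.79 with an adjusted p of 0.548, or without either co-treated pool. With the replicate block it was also lost (-1.24 with an adjusted p of 0.0836). Against RK-701 alone the Hspa1b value was 0.99 (adjusted p = 0.0528). The departure from the sum of TSA and RK-701 alone was not called for any of the 10 genes (background 2.14%).

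With TSA and UNC0638 Hspa1b was at 25.4 and 22.8 CPM and Hspa1a at 9.88 and 9.94. In CPM both pools were above every IVF and LatA control pool in both genes. In TPM this held for Hspa1b only. Hspa1a was at 8.01 and 8.60 TPM, below LatA control replicate 2 at 11.3 TPM. Hspa1b rose against the LatA control (log2 fold change 1.38 ± 0.37 (SE), adjusted p = 0.0186), 1 of 10 genes against a background of 6.21%. This call was lost without LatA control replicate 2 (1.20 with an adjusted p of 0.154), without UNC0638 replicate 1, in a fit of the compared libraries alone, and with library totals in place of TMM factors. Its log2 value by ratio of mean TPM was 0.96. Summed 2-cell markers were also high in these pools, at 1192 and 1256 CPM against 459 and 379 in the LatA control, and their part in the result was not tested. No gene was called in TSA and UNC0638 against TSA alone (background 4.97%) or against TSA and RK-701 (background 0.946%). In the last comparison Hspa1b was at 1.42 (95% interval 0.65 to 2.19; adjusted p = 0.057), and DESeq2 called it. In TSA and A366 against TSA and RK-701 no gene in the genome passed edgeR's test (background 0%; 998 genes had an unadjusted p under 0.05), and the 95% interval was -1.53 to 0.77 for Hspa1a and -0.48 to 1.05 for Hspa1b.

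The abundant cytosolic messages Hspa8, Hsp90aa1, Hsp90ab1 and Dnaja1 behaved differently from the inducible HSP70 genes, and in CPM their highest pools were in the mRNA-injected and co-treated groups. Hspa8 was at 400.3, 343, 372 and 335 CPM in IVF, 360.1 and 529.6 in control SCNT, 844 and 968 with Kdm3a and 1029.5 and 1066 with Kdm4d. Neither injected group overlapped control SCNT or IVF. Hspa8 rose 2.04-fold with Kdm3a (log2 fold change 1.03 ± 0.24 (SE), adjusted p = 0.00964) and 2.35-fold with Kdm4d (log2 fold change 1.24 ± 0.24 (SE), adjusted p = 0.00338) against control SCNT, which the comparisons share. By ratio of mean TPM the log2 values were 0.63 and 0.85, both under the fold limit. Summed markers differed between the same groups. The 2-cell markers were at 1314 and 1036 CPM with Kdm3a and 445 and 559.6 with Kdm4d against 649 and 712 in control SCNT. The oocyte markers were at 675 and 543 CPM with Kdm3a, which overlapped control SCNT at 473 and 544, and at 952 and 810.3 with Kdm4d, which did not. Their part in the calls with Kdm3a and Kdm4d was not tested.

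Dnaja1, the J protein that partners HSC70, was at 395 and 533 CPM in control SCNT, 784 and 1174 with Kdm3a and 708 and 922 with Kdm4d. It rose with Kdm3a (log2 fold change 1.08 ± 0.26 (SE), adjusted p = 0.012), although by ratio of mean TPM the log2 value was 0.68, and was not called with Kdm4d (log2 fold change 0.81 ± 0.26 (SE), adjusted p = 0.0666). Hsp90aa1 was at 719 and 934 CPM in control SCNT, 1484 and 1458 with Kdm3a and 1227 and 1306 with Kdm4d, with no overlap. It passed on adjusted p but not on the fold, at 0.83 and 0.62 on the log2 scale (adjusted p = 0.00377 and 0.0332). Hsp90ab1 was at 827 and 1251 CPM in control SCNT, 1413 and 1619 with Kdm3a and 1364 and 1632 with Kdm4d, and did not pass in either (adjusted p = 0.103 and 0.125).

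In all, 3 of 10 genes were called with Kdm3a against control SCNT (background 4.16%), Hspa8 and Dnaja1 up and Hspe1 down, and 3 with Kdm4d (background 3.14%), Hspa8, Hsph1 and Dnajb1, all up. Control SCNT replicate 1 held lower values of Hspa8, Hsp90aa1, Hsp90ab1 and Dnaja1 than replicate 2. Without replicate 1 the call count was 1 for Kdm3a, Hspe1, and 0 for Kdm4d. It was the same, 1 and 0, with library totals in place of TMM factors, a scaling under which the median of all genes was -0.33 and -0.31 on the log2 scale. Without Kdm3a replicate 2 the Kdm3a count was also 1. The Hspa8 value with Kdm3a lay close to the fold limit and fell under it with RLE factors (0.97 with an adjusted p of 0.0176), with DESeq2 and in a fit of the compared libraries alone. Between Kdm4d and Kdm3a themselves no gene was called (background 0.326%). The 95% interval of the log2 difference was -0.28 to 0.70 for Hspa8 and 0.50 to 1.81 for Dnajb1, which was called with DESeq2.

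**Figure D2:**
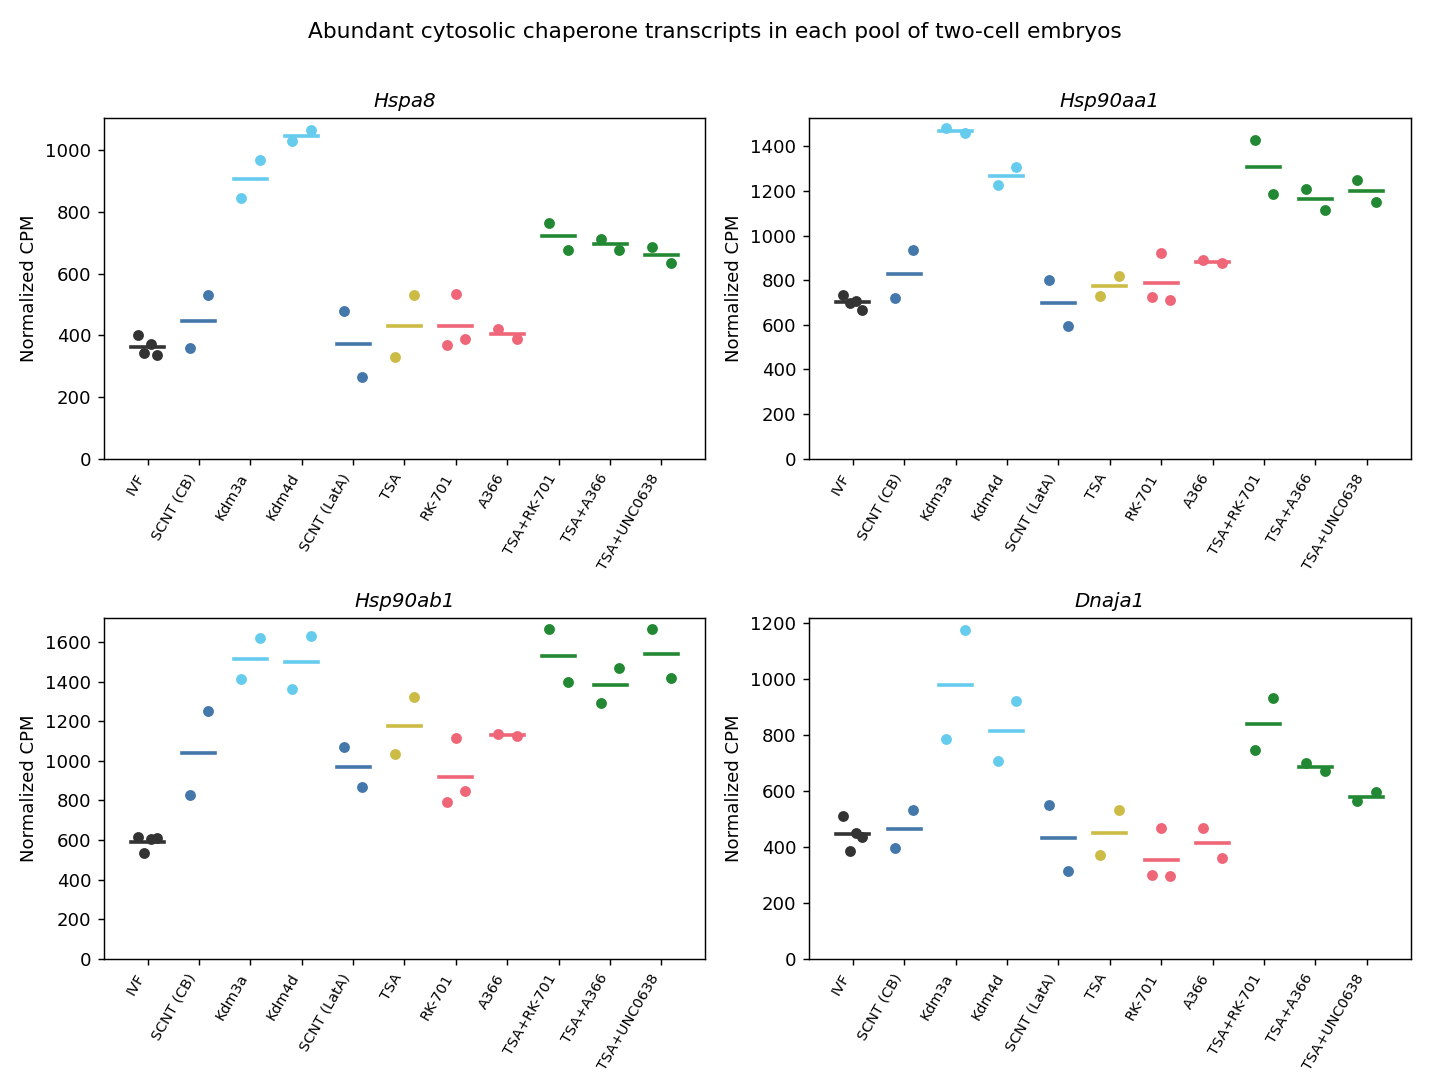
Normalized CPM (y axes, from 0) of Hspa8, Hsp90aa1, Hsp90ab1 and Dnaja1 in each pool (points) of the 11 groups (x axes), with group means as bars. The Kdm3a, Kdm4d and 3 co-treated groups are the upper ones for Hspa8, Hsp90aa1 and Dnaja1, and Hsp90ab1 is lowest in IVF.

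For Hspa8 the co-treated embryos lay between the controls and the injected embryos. It was at 480.2 and 263 CPM in the LatA control, 765 and 676 with TSA and RK-701, 714 and 676 with TSA and A366 and 685 and 636 with TSA and UNC0638. All 6 co-treated pools were above both control pools. Against the LatA control Hspa8 was at 0.95, 0.90 and 0.83 on the log2 scale and passed on adjusted p alone (adjusted p = 0.0105, 0.0158 and 0.027). By ratio of mean TPM these log2 values were 0.55, 0.56 and 0.41. Hsp90aa1 was at 802 and 596 CPM in the LatA control and 1429 and 1187, 1209.9 and 1115 and 1248 and 1151 in the same 3 groups. Its log2 values of 0.90, 0.73 and 0.78 also passed on adjusted p alone. By ratio of mean TPM those of Hsp90aa1 were 0.49, 0.37 and 0.35. The only gene called with TSA and RK-701 against the LatA control was Hspe1 (background 6.19%), and none was called with TSA and A366 (background 5.98%). Without LatA control replicate 1, the higher of the control pools for Hspa8, 4, 2 and 4 genes were called in the 3 co-treatments.

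TSA added to RK-701 raised Dnaja1, from 299.6, 468 and 297 CPM to 746 and 930.3 (log2 fold change 1.24 ± 0.23 (SE), adjusted p = 0.000353), the 1 gene called there (background 10.3%). By ratio of mean TPM this log2 value was 0.88, and with library totals it was under the fold limit (0.98 with an adjusted p of 0.0024). In TSA and A366 against TSA alone no gene was called (background 1.91%). In the single treatments Hspa8 was at 329 and 529 CPM with TSA, 368, 535 and 389 with RK-701 and 421 and 387 with A366.

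Against IVF, Hsp90ab1 was higher in every SCNT pool. It was at 615, 534, 603 and 612 CPM in IVF, and each of the 21 SCNT pools was above all 4 IVF pools. IVF replicate 2 was the lowest of these. In control SCNT, at 827 and 1251 CPM, it passed on adjusted p only (log2 fold change 0.81 ± 0.17 (SE), adjusted p = 0.00069), as in the LatA control (log2 fold change 0.71 ± 0.17 (SE), adjusted p = 0.00249). By ratio of mean TPM these log2 values were 1.05 and 1.02. It rose with Kdm3a (2.56-fold), Kdm4d (2.54-fold), TSA and RK-701 (2.59-fold), TSA and A366 (2.34-fold) and TSA and UNC0638 (2.61-fold), with adjusted p from 9.4e-07 to 6.21e-06 in edgeR. In the same order mean TPM was 1394, 1385, 1451, 1366 and 1445, against 606 in IVF. Without a call, mean TPM was 1405 with TSA, 1359 with A366 and 1118 with RK-701. In TPM the called groups thus did not stand apart from TSA or A366 alone. With library totals in place of TMM factors Hsp90ab1 was also called in control SCNT, TSA and A366. These comparisons share the 4 IVF libraries.

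With Kdm3a, 5 of 10 genes were called against IVF (background 12.8%). Hspa8 rose 2.50-fold, Hsp90ab1 2.56-fold, Dnaja1 2.20-fold and Hsp90aa1 2.10-fold, and Hspe1 fell. Hsp90aa1 was at 734, 699, 707 and 668 CPM in IVF and its call did not hold with library totals. Hsp90aa1 and Dnaja1 were under the fold limit by ratio of mean TPM, at 0.91 and 0.97 on the log2 scale. The Dnaja1 call did not hold without Kdm3a replicate 2. With Kdm4d the called genes were Hspa8, 2.89-fold up, and Hsp90ab1 (background 9.31%). For the co-treatments 1, 1 and 2 genes were called, Hsp90ab1 in TSA and RK-701 (background 12.2%) and in TSA and A366 (background 10.9%), and Hsp90ab1 with Hspa1b in TSA and UNC0638 (background 9.84%). The Hspa1b call, at 2.04-fold, was lost with RLE factors (0.97 with an adjusted p of 0.0323), with DESeq2, with the replicate block and in a fit of the compared libraries alone. It was also lost without IVF replicate 1 (0.91 with an adjusted p of 0.0662), without TSA and UNC0638 replicate 1 (0.95 with an adjusted p of 0.167) and without their replicate 2 (1.10 with an adjusted p of 0.0788), and its log2 value by ratio of mean TPM was 0.91. None was called in control SCNT (background 15%; 2 on adjusted p alone) or in the LatA control (background 15.3%; 2 on adjusted p alone). Summed oocyte markers were at 397 to 1084 CPM in SCNT pools against 1082 to 1265 in IVF, with 1 RK-701 pool inside the IVF range, and their part in these differences was not tested.

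**Figure D3:**
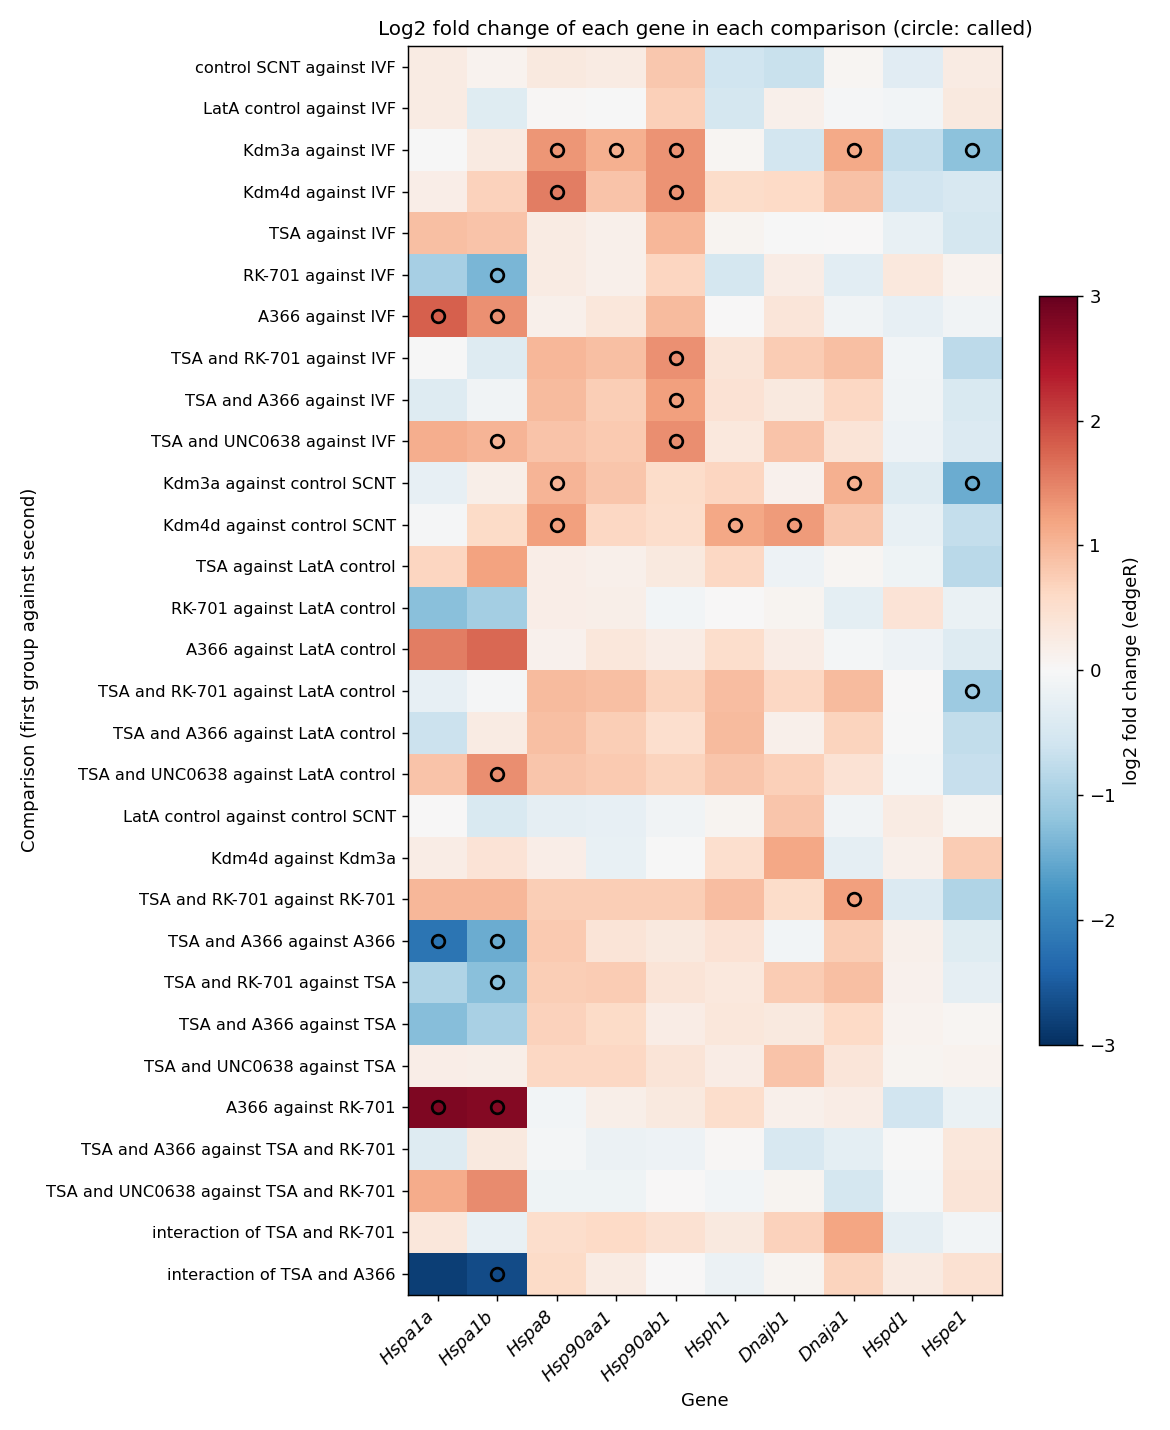
Log2 fold change from edgeR (colour) of the 10 genes (x axis) in the 30 comparisons (y axis, first group against second), with a circle where a gene was called. Circles for Hspa1a and Hspa1b lie in comparisons with A366, RK-701 or UNC0638, and those for Hspa8, Hsp90aa1, Hsp90ab1 and Dnaja1 in comparisons with Kdm3a, Kdm4d or a co-treatment.

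Hsph1 and Dnajb1 encode helpers of HSP70. Hsph1 was at 209.8, 179.8, 252 and 226 CPM in IVF, 116 and 171 in control SCNT and 149 and 152 in the LatA control. In CPM both controls were below all IVF pools and passed on adjusted p only (log2 fold change -0.60 ± 0.18 (SE), adjusted p = 0.0154 in control SCNT). In TPM both overlapped IVF, which ranged from 114 to 152. Control SCNT was at 91.8 and 117 TPM and the LatA control at 107 and 125 TPM. With Kdm4d Hsph1 was at 296 and 341 CPM and rose 2.23-fold against control SCNT (log2 fold change 1.15 ± 0.20 (SE), adjusted p = 0.00121), with no overlap. This log2 value was 0.77 by ratio of mean TPM, under the fold limit. With Kdm3a it was at 201 and 249 CPM (log2 fold change 0.65 ± 0.20 (SE), adjusted p = 0.0496), past on adjusted p only. The 3 co-treatments were at 0.92, 0.96 and 0.84 on the log2 scale against the LatA control, each past on adjusted p only (adjusted p = 0.00351, 0.00277 and 0.00753). Their mean TPM was 163, 175 and 152 against 116 in the LatA control.

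Dnajb1 was at 35.6 and 27.8 CPM in control SCNT, 85.9 and 68.2 with Kdm4d and 33.7 and 35.6 with Kdm3a. It rose with Kdm4d (log2 fold change 1.28 ± 0.32 (SE), adjusted p = 0.0181), a call lost when any of the 4 libraries compared was left out, with log2 values of 1.11 to 1.46, although the fold limit was passed each time. The ratio of mean TPM was under that limit, at 0.87 on the log2 scale. It was not called with Kdm3a (log2 fold change 0.13 ± 0.32 (SE), adjusted p = 0.881). Its IVF pools varied widely, at 54.9, 28.1, 44.0 and 75.4 CPM. The LatA control pools, at 73.1 and 38.5 CPM, were both above the control SCNT pools. LatA control and control SCNT differ in the agent used at activation and, by the paper's methods, in how long it was present. Between these controls none of the 10 genes was called (background 0.0116%). The Dnajb1 value in LatA control against control SCNT was 0.82 (95% interval 0.17 to 1.47, edgeR adjusted p = 0.556).

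Of the mitochondrial pair, Hspe1 (HSP10) was called in 3 comparisons, lower each time, and Hspd1 (HSP60) in none. Hspe1 was at 47.9, 53.1, 57.0 and 59.2 CPM in IVF, 54.9 and 73.6 in control SCNT, 22.5 and 23.5 with Kdm3a and 47.8 and 30.6 with Kdm4d. The Kdm3a pools were below all pools of IVF and control SCNT. Hspe1 fell with Kdm3a against control SCNT (log2 fold change -1.48 ± 0.27 (SE), adjusted p = 0.00129) and against IVF (log2 fold change -1.24 ± 0.24 (SE), adjusted p = 0.000545), and its value with Kdm4d was not called (log2 fold change -0.72 ± 0.27 (SE), adjusted p = 0.124). By ratio of mean TPM the Kdm3a value against control SCNT was -1.88. With TSA and RK-701, at 23.3 and 39.3 CPM against 74.3 and 58.5 in the LatA control, it fell too (log2 fold change -1.08 ± 0.27 (SE), adjusted p = 0.00954), a call lost without LatA control replicate 1 (-0.90 with an adjusted p of 0.0551), without co-treated replicate 1 and in a fit of the compared libraries alone. Hspd1, which shares the promoter region printed above, was at 83.8 and 92.8 CPM in control SCNT, 61.5 and 74.7 with Kdm3a and 74.4 and 75.9 with Kdm4d. Against control SCNT it was not called in either (adjusted p = 0.231 and 0.505), and against IVF, at 124, 117, 114 and 92.6 CPM, it passed on adjusted p only (-0.72 and -0.57). The RK-701 pools of Hspd1 were the highest 3 of the series.

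**Figure D4:**
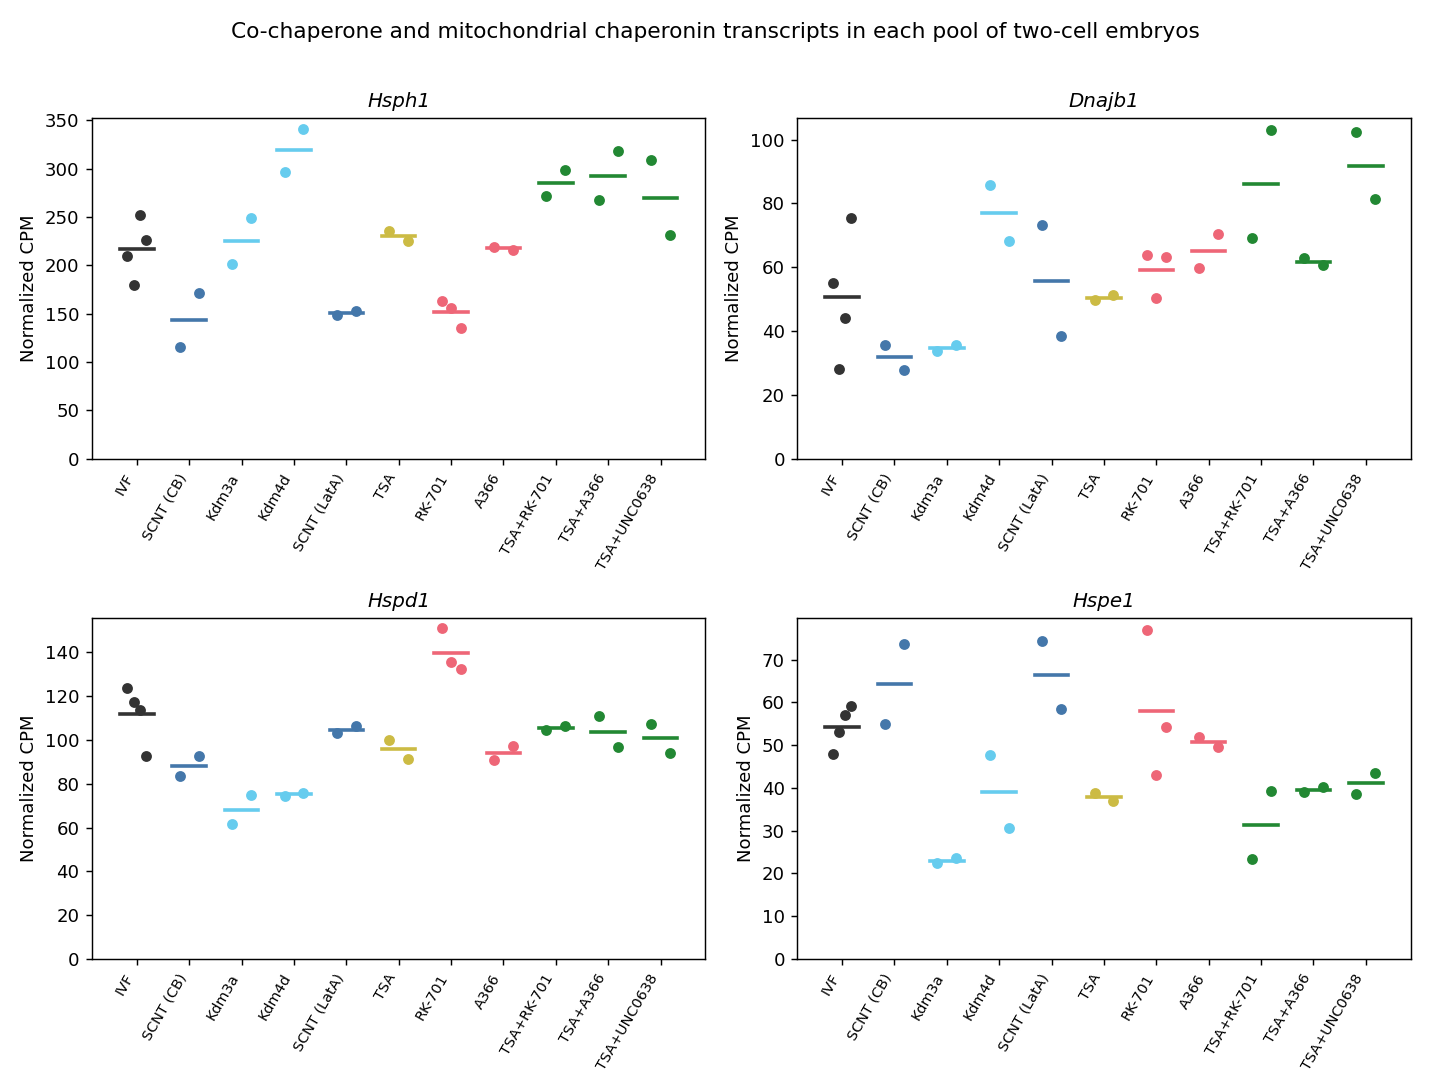
Normalized CPM (y axes, from 0) of Hsph1, Dnajb1, Hspd1 and Hspe1 in each pool (points) of the 11 groups (x axes), with group means as bars. Hsph1 is lowest in both SCNT controls and RK-701, Hspd1 is highest in RK-701, and the group mean of Hspe1 is lowest with Kdm3a.

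Among pools of one group, the abundant cytosolic genes varied together. Deviations of log2(CPM + 1) from the group means over the 25 libraries correlated at r = 0.676 to 0.898 for the 6 pairs among Hspa8, Hsp90aa1, Hsp90ab1 and Dnaja1, the closest being Hspa8 with Hsp90aa1. For the 8 pairs of Hspa1a or Hspa1b with these 4 genes r was -0.525 to -0.154, and Hspa1a with Hspa1b gave 0.186. Hspd1 and Hspe1, which share a promoter region, gave 0.05. These are descriptions across libraries of unequal depth, in which the deviations of a group of 2 mirror each other. Hspa8 spread widely in both control groups, at 360.1 and 529.6 CPM in control SCNT and 480.2 and 263 in the LatA control.

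The genes with patterns most like the inducible HSP70 pair over the 25 libraries were sought among 8171 autosomal genes averaging 10 CPM or more. For Hspa1b they were Mepce (r = 0.866, Spearman's rho = 0.857), Snai1 (r = 0.83), 2410004B18Rik (r = 0.82), Tbc1d20 (r = 0.815) and Sac3d1 (r = 0.797). For Hspa1a they were Snai1 (r = 0.814, rho = 0.725), 2410004B18Rik (r = 0.801), Ppp1r2 (r = 0.792), Cdk5r1 (r = 0.791) and Pcbp1 (r = 0.79). Without A366 replicate 2, the highest library for both, r was 0.836 for Mepce with Hspa1b and 0.768 for Snai1 with Hspa1a. These r are the highest of many and carry no test.

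The rest of the chaperone system was described with lists of heat shock factors, other HSP70, HSP110 and J proteins, small heat shock proteins, HSP70 and HSP90 cochaperones, chaperones of the endoplasmic reticulum and mitochondria, and the TRiC and prefoldin complexes, 78 tested genes in all. In control SCNT against IVF 12 of the 78 were called, 5 up and 7 down, which is 15.4% and close to the background of 15%. Of 5 genes of the heat shock factor list, Hsf2, which is expressed in germ cells and embryos, rose (log2 fold change 1.25 ± 0.33 (SE), adjusted p = 0.00766) and Hsf5, a germ cell factor, fell (log2 fold change -2.40 ± 0.33 (SE), adjusted p = 5.43e-06). The same was called in the LatA control, with Hsf2 at 1.18 and Hsf5 at -2.44, where 8 of the 78 were called, 4 up and 4 down (background 15.3%). Hsf1, the main stress factor, was not called in either (-0.16 and 0.23 on the log2 scale). In the comparison where Hspa1a and Hspa1b differed most, A366 against RK-701, Hsf2 was higher with A366 (log2 fold change 1.12 ± 0.36 (SE), adjusted p = 0.0375). There 13 of the 78 were called, 10 of them higher with A366 (background 8.08%). Against the LatA control Hsf2 was called lower with RK-701 (log2 fold change -1.33 ± 0.36 (SE), edgeR adjusted p = 0.0258). It was not called with A366 against that control (-0.21, adjusted p = 0.886). The part of Hsf2 in the HSP70 difference was not tested.

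Endoplasmic reticulum chaperones fell in 3 of 13 cases in control SCNT against IVF (background 15%), Sdf2l1 (-1.47), the disulfide isomerase Pdia6 (-1.29) and Dnajb11 (-1.06). In the LatA control 1 of 13 was called (background 15.3%), Calr, the calreticulin gene, which rose (1.17). Of 9 mitochondrial chaperones, Grpel2 and Hscb rose in control SCNT (1.12 and 1.11). Other called genes of control SCNT were Hspa2, a testis HSP70 (-1.39), the J protein Dnajc3 (1.10), the cochaperone Cacybp (-1.19), and the prefoldin subunits Pfdn1 (1.16) and Pfdn6 (-1.02). In the LatA control they were Dnajc3 (1.27), Dnaja4 (-2.02), the HSP90 cochaperone Chordc1 (1.20), the nucleotide exchange factor Bag5 (-1.14) and the TRiC subunit Cct4 (-1.02).

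The joint list of prefoldin and TRiC, the cytosolic chaperonin that folds actin and tubulin, had the most called genes among the lists in the co-treatments against the LatA control. These comparisons share the LatA control libraries, in which Cct4 was itself called lower than in IVF. Leaving out single libraries was not run for these lists. With TSA and RK-701 4 of 13 TRiC and prefoldin genes rose and none fell (background 6.19%), led by Cct4 (log2 fold change 1.94 ± 0.30 (SE), adjusted p = 0.000199), Tcp1 (1.24) and Pfdn6 (1.09), with a list median of 0.62 against -0.11 for all genes. With TSA and A366 3 rose (background 5.98%), Cct4 (1.52), Tcp1 (1.10) and Pfdn5 (1.01), and with TSA and UNC0638 2 rose (background 6.21%), Cct3 (1.21) and Tcp1 (1.02). Of the endoplasmic reticulum chaperones 1 of 13 fell in each and none rose, Hyou1 with RK-701 (-1.19), Sdf2l1 with A366 (-1.39) and Hsp90b1 with UNC0638 (-1.40). Outside these lists Dnajb6 rose with TSA and RK-701 (1.05), Bag5 rose (1.12) and Hspa13 fell (-1.80) with TSA and A366, and Grpel2 rose with TSA and UNC0638 (1.74).

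Against control SCNT 1 of the 78 other chaperone genes was called with Kdm3a (background 4.16%), Dnajb2, which fell (log2 fold change -1.39 ± 0.42 (SE), adjusted p = 0.0434). With Kdm4d 1 of 78 was called (background 3.14%), Cct4, which rose (log2 fold change 1.08 ± 0.29 (SE), adjusted p = 0.0288). Hsf1 and Hsf2 were not called in either (Hsf2 at -0.70 with Kdm3a and -0.79 with Kdm4d). The medians of the 78 genes were 0.13 with Kdm3a and 0.31 with Kdm4d on the log2 scale, beside -0.04 for all genes tested in each. These medians depend on the scaling and are read against the median of all genes, which library totals put at -0.33 and -0.31.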

How the data were processed

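The authors built SMART-Seq HT libraries, trimmed reads with Trimmomatic, mapped them to mm10 with STAR keeping unique alignments, and counted pairs on exons without strand with featureCounts v1.6.2. A pair that overlapped 2 or more features was not counted. The methods give an allowed mismatch share of 0, under which reads that differ from the reference would be lost. The deposited values are whole-number counts for 55375 genes and for transposable element copies, which were not used here.

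Counts of 25794 genes on the autosomes, each averaging 1 read or more, were fitted over all 25 libraries with edgeR 4.0.16 (R 4.3.3) with TMM factors, a term for each group and quasi-likelihood tests, with Benjamini-Hochberg adjustment over all tested genes; calls need an adjusted p under 0.05 and a fold over 2. DESeq2 1.42.0 was an alternative. TPM used the exon lengths in the table over autosomal genes. Libraries of one group differed well beyond counting noise (chi-square per gene 7.34 to 64.8), so none was treated as a repeat. The highest value was that of the LatA control, the shared baseline of the inhibitor groups, and the next was 33.4 for TSA alone. A reference table gave symbols for 55134 of the 55375 identifiers. Transcripts and gene models came from GENCODE M21 and promoters from RefSeq.

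All 10 genes are named in every comparison. From the other lists, called genes were named for both controls against IVF, both injected groups against control SCNT and the 3 co-treatments against the LatA control, at most the 3 with the largest change for each list, beside Hsf1 and Hsf2. The 10 genes and the lists were chosen with earlier results of these data known. Alternatives were DESeq2, RLE factors, no filter, the compared libraries alone, a replicate block, no fold limit and leaving out each library; library totals and TPM ratios were chosen after seeing the data.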

Additional observations from a re-analysis of the deposited data

Results flagged for a closer look

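Hsp90ab1 in IVF embryos had 1 pool apart from the others, replicate 2 at 534 CPM, where the remaining 3 pools were at 603 to 615 CPM. Chance flags about 1 in 20 groups of this size. All SCNT pools stayed above the IVF pools with or without it. For Hspa1b, the estimated effect of TSA differed in the main fit between embryos with and without A366. The departure of the co-treatment from the sum of the separate log2 changes was -2.69 (adjusted p = 0.0111 in edgeR, Benjamini-Hochberg adjusted). It rested on 2 pools in each of the 4 groups. The call was lost without A366 replicate 2, the pool with the most Hspa1b (-2.21), and without TSA replicate 1 (-2.23). It was also lost without TSA and A366 replicate 1 (-2.56) and in a fit of the compared libraries alone (-2.69).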

How the results depend on the processing

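For the 29 called changes of the 10 genes, 326 values under alternatives were computed. Of these 274 kept their direction and stayed past both limits, 52 kept their direction and missed a limit, and 0 reversed. The counts that follow are of the 10 genes called per comparison. Without the fold limit they were 2 in control SCNT, LatA control and TSA, 6 in Kdm4d and in TSA and RK-701, 3 in RK-701, 4 in TSA and A366 and 5 in TSA and UNC0638, all against IVF. Without it they were also 5 in Kdm3a against control SCNT, 6, 3 and 5 in the co-treatments with RK-701, A366 and UNC0638 against the LatA control, 6 in TSA and RK-701 against RK-701, 3 in it against TSA, and 1 in TSA and UNC0638 against TSA. More genes pass because one limit was dropped. With library totals in place of TMM factors, chosen after seeing the data, they were 1 in control SCNT (Hsp90ab1) and 2 in TSA (Hsp90ab1 and Hspa1b) against IVF, 1 in Kdm3a (Hspe1) and 0 in Kdm4d against control SCNT, and 1 (Hspe1) and 0 in TSA with A366 and with UNC0638 against the LatA control. With DESeq2 1 was called in TSA and UNC0638 against IVF, as with RLE factors, 1 (Hspa1b) in RK-701 and in A366 against the LatA control and in TSA and UNC0638 against TSA and RK-701, 1 (Dnajb1) in Kdm4d against Kdm3a, 1 (Dnaja1) in the interaction of TSA with RK-701 and 2 (Hspa1a and Hspa1b) in that with A366. With no filter on low counts the counts were 1, 1, 1, 1 and 2 for A366 against the LatA control, Kdm4d against Kdm3a, TSA and UNC0638 against TSA and RK-701, and the interactions with RK-701 and A366. A fit of the compared libraries alone gave 0 in TSA with RK-701 and with UNC0638 against the LatA control, 0 in the interaction of TSA and A366, and 1 in Kdm4d against Kdm3a and in TSA and UNC0638 against TSA and RK-701. For these changes the cause was not tested.

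Leaving out each library in turn gave counts of 0 to 1 in control SCNT against IVF, 0 to 1 in TSA against IVF, 0 to 2 in A366 against IVF, 1 to 4 in TSA and RK-701 against IVF and 1 to 3 in TSA and UNC0638 against IVF. They were 1 to 4 in Kdm3a and 0 to 2 in Kdm4d against control SCNT. Against the LatA control they were 0 to 1 in TSA, 0 to 1 in RK-701, 0 to 1 in A366, 1 to 4 in TSA and RK-701, 0 to 2 in TSA and A366 and 0 to 4 in TSA and UNC0638. They were 1 to 2 in TSA and RK-701 against RK-701, 0 to 2 in TSA and A366 against A366, 0 to 3 in TSA and RK-701 against TSA, 0 to 1 in TSA and A366 against TSA, 1 to 2 in A366 against RK-701, 0 to 1 in the interaction of TSA and RK-701 and 0 to 2 in that of TSA and A366. In a group of 2 the lone remaining library is assumed to vary like the other groups.

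Whether the replicate numbers pair the libraries was examined with deviations from group means. Deviations from group means correlated at -0.418 to 0.223 (median -0.008) between libraries of the same number in different groups, and 9 of 111 such pairs were over 0.1. Between libraries of different number they correlated at -0.223 to 0.418 (median 0.004), and 18 of 171 such pairs were over 0.1. In groups of 2 the deviations mirror each other, so the second set is no separate baseline. These values cannot decide whether libraries were paired. With the replicate number as a block, 2 genes were called in TSA and RK-701 against IVF and 0 in TSA and RK-701 against TSA, and no other count of the 10 genes moved. In TSA and UNC0638 against IVF the count stayed at 2, but Dnajb1 was called in place of Hspa1b. Outside these 3 comparisons the block called the same genes.

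Depth limits Hspa1a most, with as few as 21 counts in a library, and reads from stretches it shares with Hspa1b are lost from both.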
